A study of Mus musculus with 15 samples.

Results

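The 9 genes studied here act in fatty acid oxidation and the fasting response, and they were followed through 15 RNA-seq libraries of newborn mouse epidermis and tongue. They were Angptl4, Ucp3, Cpt1a, Cpt1b, Pdk4, Acot2, Acadm, Hadha and Slc25a20, taken by symbol, and all 9 had an entry among the 23420 mouse genes of the tables. The set was selected on the levels measured in these same libraries, matched by animal across the tissues. Its pattern over animals is therefore given below as a description. Where a fit below touches that pattern, its calls restate the choice of genes and are no support for the pattern.

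The pups were at postnatal day 1, and they were either wild type (WT) or lacked all 7 HAT/DESC protease genes, Tmprss11a to Tmprss11g, after multiplexed gene editing (KO). These genes encode membrane-bound serine proteases of surface epithelia. The libraries were 4 of KO epidermis, 3 of WT epidermis, 4 of KO tongue and 4 of WT tongue. By the A-number in their labels they came from 9 animals. The 4 KO animals (A328, A343, A386, A387) and 2 WT animals (A383, A384) gave both tissues. The WT animal A325 gave epidermis alone, and A329 and A342 gave tongue alone. The labels used here say nothing of feeding or litter.

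Counted reads ran from 10117819 to 17819195 per library, and levels are given as CPM, read counts scaled to a common library size, on 1 scaling of all 15 libraries. Summed over the 6 targeted genes analysed here, the level was 109 to 250 CPM in KO epidermis and 236 to 310 CPM in WT epidermis. In tongue it was 135 to 151 CPM in KO and 350 to 387.3 CPM in WT, so that reads of the targeted genes remained in KO libraries. The defining keratinocyte markers summed to 36100 to 64110 CPM in the epidermis libraries and to 514 to 793 CPM in the tongue libraries, and skeletal muscle markers to 96.4 to 765 CPM in epidermis and 31600 to 55280 CPM in tongue. The epidermis library of A325 stood apart: mitochondrial ribosomal RNA took 44.6% of its reads, against 20.1% to 23.8% in the other epidermis libraries. Its mean correlation with them was 0.905, where theirs were 0.958 to 0.968. Some values are also given without this library or without A386 and A387, and all others include them.

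Long-chain fatty acids enter mitochondria through a shuttle. Carnitine palmitoyltransferase 1 (Cpt1a in most tissues, Cpt1b in muscle) joins them to carnitine and Slc25a20 carries the product across the inner membrane. Acadm and Hadha then act in the beta-oxidation cycle. Pdk4 switches pyruvate dehydrogenase off and so spares glucose, Acot2 releases free fatty acids inside mitochondria, Ucp3 is an inner-membrane carrier of muscle, and Angptl4 is a secreted inhibitor of lipoprotein lipase. In fasting, fatty acids bind the nuclear receptors PPAR-alpha and PPAR-delta, and genes of this set are known targets of them. PPARs bind DNA with a retinoid X receptor at a pair of AGGTCA hexamers set 1 base apart.

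Promoters from 250 bases before to 50 bases after the start site were at hand for 7 of the 9 genes (RefSeq, GRCm38.p6). None of these 7 held the full pair AGGTCANAGGTCA on either strand, which 0.0396% of 32851 mouse promoters of the same length held. The single hexamer AGGTCA, read on both strands and contained in the pair, occurred in 3 of the 7, against 16.3% of all promoters. It stood at positions -149 and -44 in Ucp3, at -94 in Cpt1a as TGACCT, and at -249 in Acadm as TGACCT. The promoters of Ucp3 (chr7:100472741-100473040, plus strand) and Cpt1a (chr19:3323051-3323350, plus strand) are shown because the levels of both genes spread widely over the tongue libraries, with the hexamer in capitals.
Ucp3: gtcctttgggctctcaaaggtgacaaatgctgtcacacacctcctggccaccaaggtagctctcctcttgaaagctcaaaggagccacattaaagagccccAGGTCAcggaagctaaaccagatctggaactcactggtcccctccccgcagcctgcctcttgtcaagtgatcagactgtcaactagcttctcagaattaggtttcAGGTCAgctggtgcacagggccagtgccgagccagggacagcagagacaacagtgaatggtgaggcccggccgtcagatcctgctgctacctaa
Cpt1a: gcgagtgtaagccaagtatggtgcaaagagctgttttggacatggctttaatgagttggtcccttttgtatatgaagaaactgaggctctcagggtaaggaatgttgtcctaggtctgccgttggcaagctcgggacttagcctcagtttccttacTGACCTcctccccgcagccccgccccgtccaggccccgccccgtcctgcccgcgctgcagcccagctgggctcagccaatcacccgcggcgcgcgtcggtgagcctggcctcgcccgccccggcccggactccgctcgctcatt
Such a match is a match of letters and not a measured site, and the windows do not cover introns or distal elements.

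The set was unequally expressed, and the order of levels can be read only per length. Per kilobase of annotated exons (GENCODE M21, GRCm38), Acadm (3:153922357-153944632) stood highest in tongue at 45.7 ± 12.1 CPM per kb in KO and 45.3 ± 3.60 in WT (SD, n = 4 each). Pdk4 (6:5483351-5496309) followed at 30.6 ± 20.3 in KO and 39.7 ± 11 in WT, and Hadha (5:30118304-30155162) at 26.0 ± 7.77 in KO and 25.4 ± 3.49 in WT. In WT tongue, Pdk4 and its neighbours in this order overlapped in range. Angptl4 (17:33773750-33781830), Cpt1a (19:3322334-3385733), Slc25a20 (9:108662088-108684641), Acot2 (12:83987861-83993873) and Ucp3 (7:100472990-100486432) lay between 6.14 and 11.1 CPM per kb in WT tongue, with overlapping ranges. Cpt1b (15:89416405-89425863) was lowest in tongue at 0.244 ± 0.0729 in KO and 0.199 ± 0.0860 in WT. In epidermis Hadha came first with 21.2 ± 4.67 CPM per kb in KO (n = 4) and 20.9 ± 7.18 in WT (n = 3), and Acadm and Cpt1a came next. Dividing by the longest transcript instead of the exon union placed Hadha, at 55.3, above Pdk4 in WT tongue.

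Not every entry can be read as 1 gene. Of the 37-base stretches of Cpt1b transcripts, the length of a read, 79.4% also occur in other genes, foremost Gm44502, which overlaps it, and for Acot2 33.8% also occur in other genes, foremost its neighbour Acot1. The share was 8.16% or less for the other 7 genes. How reads of shared stretches were counted is not known. The size of the error in the levels of Cpt1b and Acot2 can thus not be given, and the low level of Cpt1b may reflect uncounted reads.

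Most of the set was lower in epidermis than in tongue. In WT pups 6 of the 8 genes tested were lower, against a background of 31.6% of the 16577 genes tested (edgeR quasi-likelihood test, adjusted p under 0.05). Cpt1a and Hadha did not pass, and Cpt1b was too low to test. Skeletal muscle makes up much of the newborn tongue, and all 12 muscle markers were lower in WT epidermis, where they summed to 107 to 267 CPM, against 31600 to 54440 CPM in WT tongue. Their part in the tissue difference of the 9 genes was not tested. In whole tissue, fewer cells of a type and less RNA per cell cannot be told apart.

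Pdk4 had 2.81, 6.10 and 6.51 CPM in WT epidermis, against 86.8, 171, 135 and 165 CPM in WT tongue. Every epidermis library lay below every tongue library, with a log2 fold change of -4.70 (95% interval -5.50 to -3.90, adjusted p = 3.92e-06 by edgeR). Ucp3 was at 0, 0 and 0.307 CPM in WT epidermis, against 11.9, 22.9, 21.1 and 21.1 CPM in WT tongue. The epidermis values stand for 0, 0 and 6 reads. Its summed 6 reads in epidermis leave the size of the fold (log2 -7.17, adjusted p = 1.08e-05) poorly fixed. Angptl4 had 1.68, 9.17 and 10.3 CPM in WT epidermis and 19.8, 59.7, 37.5 and 39.7 CPM in WT tongue, with a log2 fold change of -2.41 (interval -3.62 to -1.19, adjusted p = 0.00371).

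Among the mitochondrial enzymes the difference was smaller. Acadm, medium-chain acyl-CoA dehydrogenase, averaged 48.04 ± 8.38 CPM in WT epidermis (n = 3) and 177 ± 14.1 CPM in WT tongue (n = 4), a log2 fold change of -1.86 (SE 0.17). Acot2 averaged 5.83 ± 2.38 CPM in WT epidermis and 16.2 ± 2.91 CPM in WT tongue (log2 -1.43, adjusted p = 0.00208 by edgeR). Slc25a20 averaged 17.7 ± 5.85 CPM in WT epidermis and 38.3 ± 4.09 CPM in WT tongue (log2 -1.08, adjusted p = 0.00226 by edgeR). Cpt1a, the entry enzyme, had 54.7, 88.3 and 71.0 CPM in WT epidermis, against 54.7, 57.3, 61.3 and 71.2 CPM in WT tongue. Its groups overlapped, and the log2 fold change of 0.24 (interval -0.15 to 0.64) did not pass the test (adjusted p = 0.251 by edgeR). Without the library of A325 it was 0.39 and passed (adjusted p = 0.0128 by edgeR). Hadha, a subunit of the trifunctional protein, averaged 182 ± 62.7 CPM in WT epidermis and 222 ± 30.5 CPM in WT tongue and did not pass (log2 -0.27, adjusted p = 0.364 by edgeR).

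In KO pups 5 of 8 genes were lower in epidermis, beside 31.1% of the 16398 genes tested. Ucp3 (log2 -6.84), Pdk4 (-4.19), Acadm (-1.57), Acot2 (-1.29) and Slc25a20 (-0.99) passed. Angptl4 had the same log2 fold change as in WT, -2.43, but its interval was -5.31 to 0.45 (adjusted p = 0.122 by edgeR). All 4 KO animals gave both tissues, and with animal as a block the change of -2.35 passed (adjusted p = 7.42e-06 by edgeR). The same block brought Cpt1a past the threshold as higher in KO epidermis (log2 0.89, adjusted p = 0.00733 by edgeR) and left Acot2 short of it (-0.96, adjusted p = 0.0567 by edgeR). Acot2 and Slc25a20 overlapped between the KO tissues, and leaving out 1 of the 8 libraries ended the call of Acot2 in 6 cases (log2 -1.33 to -0.72) and of Slc25a20 in 5 (-1.01 to -0.66). Leaving out A386 and A387, Angptl4 in KO pups was at -2.43 and passed (adjusted p = 0.0254 by edgeR).

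**Figure D1:**
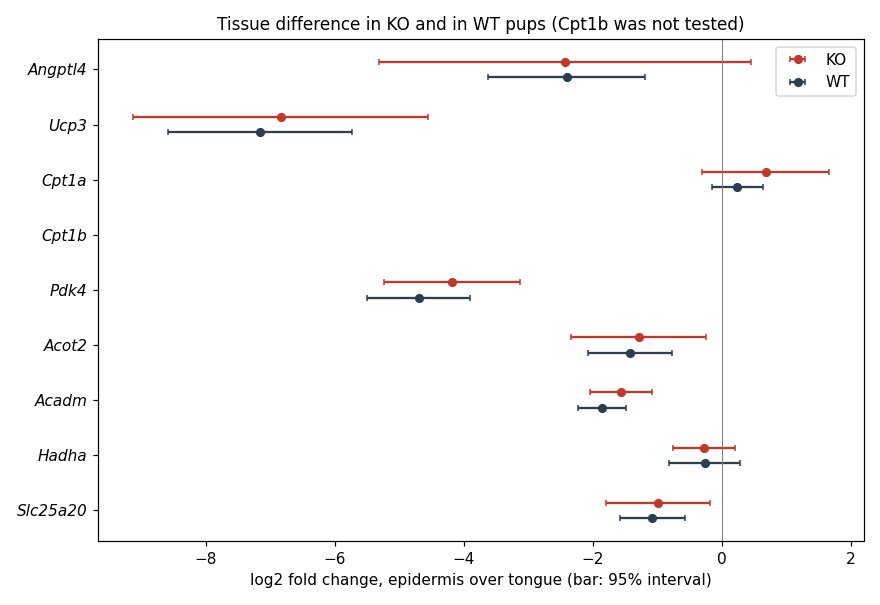
Log2 fold change of epidermis over tongue (x axis) for the 8 genes tested in KO pups (red, 4 libraries a tissue) and in WT pups (dark, 3 epidermis and 4 tongue libraries), with 95% intervals from edgeR. Ucp3 and Pdk4 lie farthest below 0, while the intervals of Cpt1a and Hadha include 0 in KO and in WT pups and that of Angptl4 includes 0 in KO pups.

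The wider pathway was read from lists of genes chosen with earlier results known. Over all genes tested, 31.6% were lower and 32% higher in WT epidermis, and in KO epidermis 31.1% were lower and 32.7% higher. Counts of 3 in 11 or 5 in 16 are near these shares. On the list of fatty acid entry and activation, 7 of the 14 genes were lower and 5 higher in WT epidermis. The lower ones included Cd36, a fatty acid transporter, with 5.89 ± 0.656 CPM in WT epidermis (n = 3) and 382 ± 44.2 CPM in WT tongue (n = 4), and Lpl, the lipase that Angptl4 inhibits, with 4.18 ± 1.0 CPM in WT epidermis and 201 ± 18.7 CPM in WT tongue. Of 19 genes of mitochondrial beta-oxidation, 12 were lower and 3 higher, with a median log2 fold change of -0.85, against 0.03 over all genes. Eci1, an enoyl-CoA isomerase, was lower (log2 -3.56), and Acad9, an acyl-CoA dehydrogenase also needed for complex I assembly, was higher (2.36). In KO pups 13 of these 19 were lower and 3 higher.

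Among 16 PPAR receptors, partners and coactivators, 7 were lower and 5 higher in WT epidermis. Rxrg (log2 -7.27) and Ppargc1a (-6.27), a coactivator of oxidative genes, were lower, and Rxra, the retinoid X receptor common in skin, was higher at 177 ± 55.8 CPM in WT epidermis and 45.4 ± 5.37 CPM in WT tongue. Of 11 genes of fatty acid synthesis, 7 were higher in WT epidermis and 3 lower. Elovl6, a fatty acid elongase, had 135 ± 54.6 CPM in WT epidermis and 32.5 ± 1.93 CPM in WT tongue. Of 11 genes of peroxisomal oxidation and ketone metabolism, 3 were higher and 3 lower in WT epidermis. Among 16 other PPAR targets 7 were lower and 3 higher, led by the lipid droplet gene Plin5 (log2 -6.83). Of 18 genes of the pyruvate dehydrogenase switch and glycolysis 10 were lower and 3 higher, and of 24 FoxO, glucocorticoid and fasting-response genes 12 were lower and 5 higher. None of these 8 lists held a gene called between KO and WT in epidermis or tongue.

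Genotype did not separate the 9 genes. In epidermis none of the 7 tested passed, nor did any of the 16073 genes tested (0%), with 187 genes at an unadjusted p under 0.05 by edgeR and 1 gene called by DESeq2. In tongue none of the 8 tested passed, beside 2 of 15741 genes (0.0127%). The smallest adjusted p among them in tongue was 0.939 (edgeR). In the difference of the genotype effects between tissues none of the 9 passed, nor did any of 17935 genes (0%, edgeR; 299 at an unadjusted p under 0.05, and 1 called by DESeq2). Cpt1b had the smallest p there (log2 difference -1.92, SE 1.07, adjusted p = 1 by edgeR), on 0 to 2 reads per epidermis library.

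The levels spread widely among the KO pups. Angptl4 had 22.2, 60.7, 3.68 and 2.95 CPM in KO tongue (animals A328, A343, A386 and A387), against 19.8, 59.7, 37.5 and 39.7 CPM in WT tongue. A328 lay within the WT values and A343 just above the highest of them, while A386 and A387 lay below all of them. The log2 fold change of KO over WT was -0.81 (interval -3.12 to 1.51, adjusted p = 0.939 by edgeR). It was -2.02 without A343, -0.46 without A386, -0.43 without A387 and -0.53 without the WT animal A342, and no call resulted. In epidermis Angptl4 had 3.56, 12.4, 0.807 and 0.616 CPM in the same KO animals, against 1.68, 9.17 and 10.3 CPM in WT. The same A386 and A387 were lowest, at 15 and 11 reads, and A325 also had 15 reads. The log2 fold change there was -0.77 (interval -3.36 to 1.81), and it was -1.26 without A325, -2.10 without A343, -0.42 without A386, -0.42 without A387 and -0.40 without the WT animal A384.

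**Figure D2:**
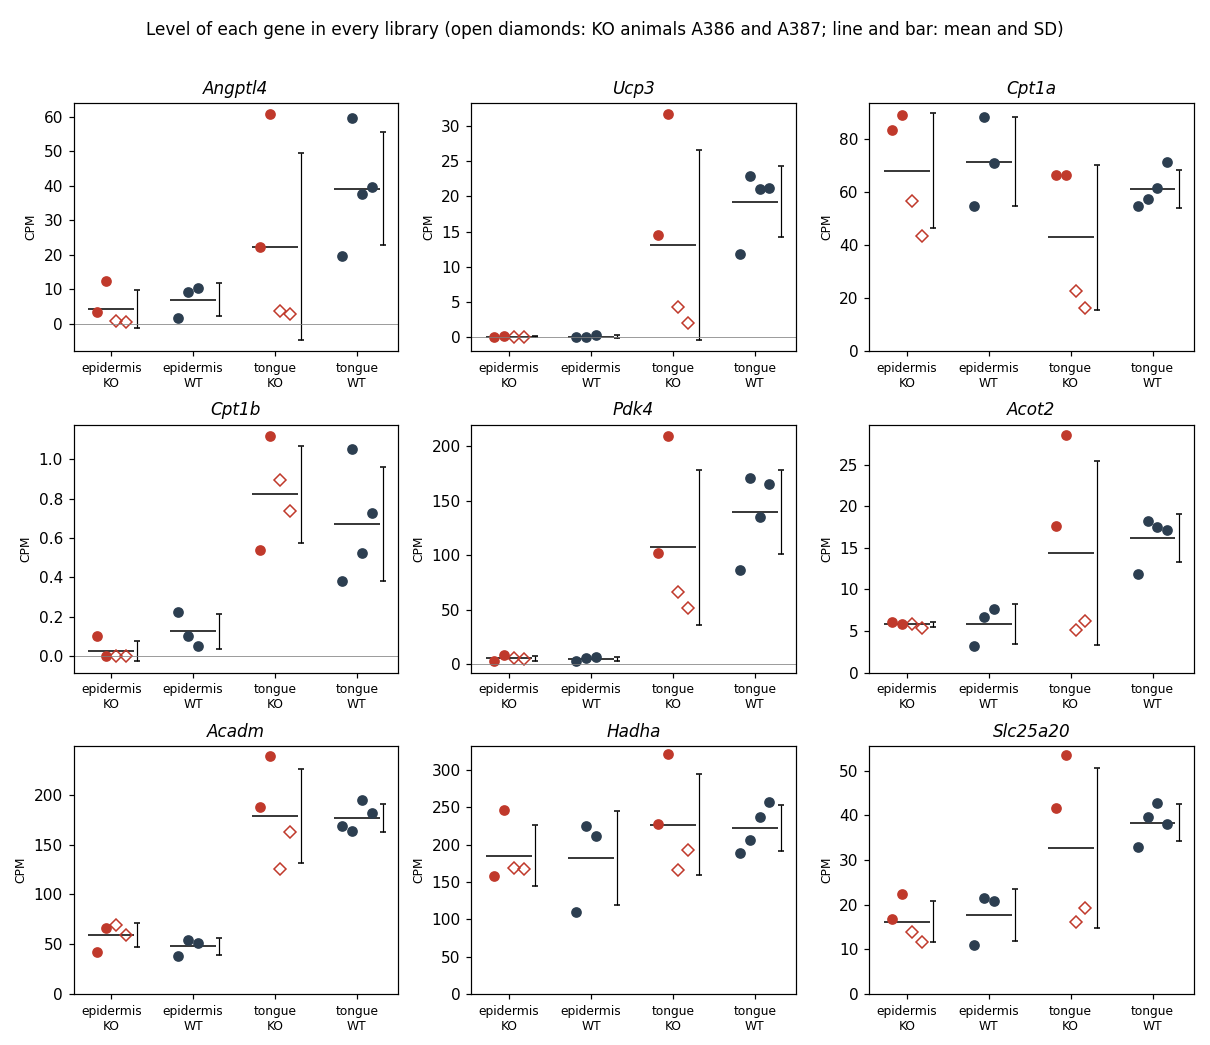
CPM (y axis) of each gene in every library of KO epidermis (n = 4), WT epidermis (n = 3), KO tongue (n = 4) and WT tongue (n = 4), with the mean as a line and the SD as a bar beside it, and open diamonds for KO animals A386 and A387. In the tongue panels of Angptl4, Ucp3, Cpt1a, Pdk4, Acot2 and Slc25a20 the open diamonds lie below all WT points, while the other KO points lie among or above them.

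Ucp3 showed the same order in KO tongue, with 14.6, 31.6, 4.27 and 2.02 CPM, against 11.9, 22.9, 21.1 and 21.1 CPM in WT tongue. A386 and A387 were again below every WT library, and A343 above every one. The log2 fold change was -0.55 (SE 0.76), and it was -1.47 without A343, -0.28 without A386 and -0.18 without A387. In epidermis Ucp3 had at most 6 reads in a library. Cpt1a had 66.5, 66.3, 22.8 and 16.2 CPM in KO tongue, against 54.7, 57.3, 61.3 and 71.2 CPM in WT tongue. In KO epidermis it had 83.3, 88.9, 56.5 and 43.4 CPM, against 54.7, 88.3 and 71.0 CPM in WT epidermis, so that A387 alone was below the WT range. The lowest WT value, 54.7 CPM, was that of A325. Against A383 and A384 (88.3 and 71.0 CPM), A386 and A387 were both lower. Cpt1b stayed between 0.383 and 1.12 CPM (4 to 15 reads) in all tongue libraries, with 0.895 and 0.736 CPM in A386 and A387.

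Pdk4 had 102, 209, 66.5 and 51.4 CPM in KO tongue, against 86.8, 171, 135 and 165 CPM in WT tongue. Its values for A386 and A387 were the lowest of the tissue, but in epidermis they were not. There Pdk4 had 3.40, 8.87, 5.86 and 5.32 CPM in KO and 2.81, 6.10 and 6.51 CPM in WT, and the groups overlapped throughout. The highest value was that of A343. Its epidermis library also had the highest skeletal muscle marker sum of the tissue, 765 CPM, against 96.4 to 267 CPM in the others. The part of these markers in the epidermis levels was not tested. Acot2 had 17.6, 28.6, 5.07 and 6.20 CPM in KO tongue, against 11.9, 18.3, 17.5 and 17.1 CPM in WT tongue. In KO epidermis it was nearly even, at 5.32 to 6.13 CPM, within the 3.15 to 7.69 CPM of WT epidermis. The value of 3.15 CPM was that of A325. The WT animals A383 and A384 had 6.66 and 7.69 CPM, above every KO epidermis library.

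Slc25a20 had 41.7, 53.4, 16.1 and 19.3 CPM in KO tongue, against 33.0, 39.5, 42.8 and 37.9 CPM in WT tongue. In KO epidermis A386 (13.9) and A387 (11.6) were below A328 (16.8) and A343 (22.5), and WT epidermis had 11.01, 21.5 and 20.7 CPM. The lowest WT value was that of A325. Acadm and Hadha had the smallest ratios of highest to lowest library in tongue. Acadm had 187, 239, 126 and 162 CPM in KO tongue and 164 to 195 CPM in WT tongue, and Hadha had 227, 322, 166 and 193 CPM in KO tongue and 189 to 257 CPM in WT tongue. In epidermis A386 had the highest Acadm level of all 7 libraries, 69.6 CPM. Acadm, Hadha and Pdk4 were thus not lowest in A386 and A387 there.

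Over the tongue libraries the highest value was 20.6 times the lowest for Angptl4, 15.6 times for Ucp3 and 4.39 times for Cpt1a, but 1.90 times for Acadm and 1.94 times for Hadha. In epidermis the ratio was 20 for Angptl4 and 2.05 for Cpt1a. The KO animal A343 had the highest tongue level of 8 of the 9 genes, and for Cpt1a it was the WT animal A384. The 9 were chosen on these levels, and the share over all genes is not given here. Among the 6 animals with both tissues, A343 tongue was also highest for Cd36, Fabp3, Cpt2 and Hadhb. For Acsl4 and Hadh it was A328 and A384.

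Of the 6 animals that gave both tissues, A386 and A387 had the lowest levels in both for 4 of the 7 genes at a mean of 1 CPM or more in each tissue. These were Angptl4, Cpt1a, Slc25a20 and Acot2, the last by 5.86 CPM against 5.88 CPM in A343 epidermis. Over all 13131 genes at that level the share was 2.67%. In tongue alone they were the lowest pair for all 7, against 13.4% of the 13131 genes, and in epidermis alone for 4, against 12.6%. They were the highest pair in both tissues for 0 of the 7 genes and for 2.79% of the 13131. The genes were chosen for this pattern, and nothing is read from the contrast. The other KO animals, A328 and A343, did not share the pattern, and no cause of the pattern was tested.

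The size of the difference differed between tissues of the same animals. The log2 ratio of epidermis to tongue for Angptl4 was -2.19 and -2.26 in A386 and A387 and between -2.64 and -1.95 in the other 4 animals, so that its level differed alike in both tissues. For Cpt1a it was 1.31 and 1.42 in A386 and A387 and between -0.004 and 0.53 in the others. For Acot2 it was 0.21 and -0.22, against -2.28 to -1.15, and for Pdk4 -3.50 and -3.27, against -4.90 to -4.47. In these genes the tongue level of A386 and A387 was further from the other animals than the epidermis level.

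**Figure D3:**
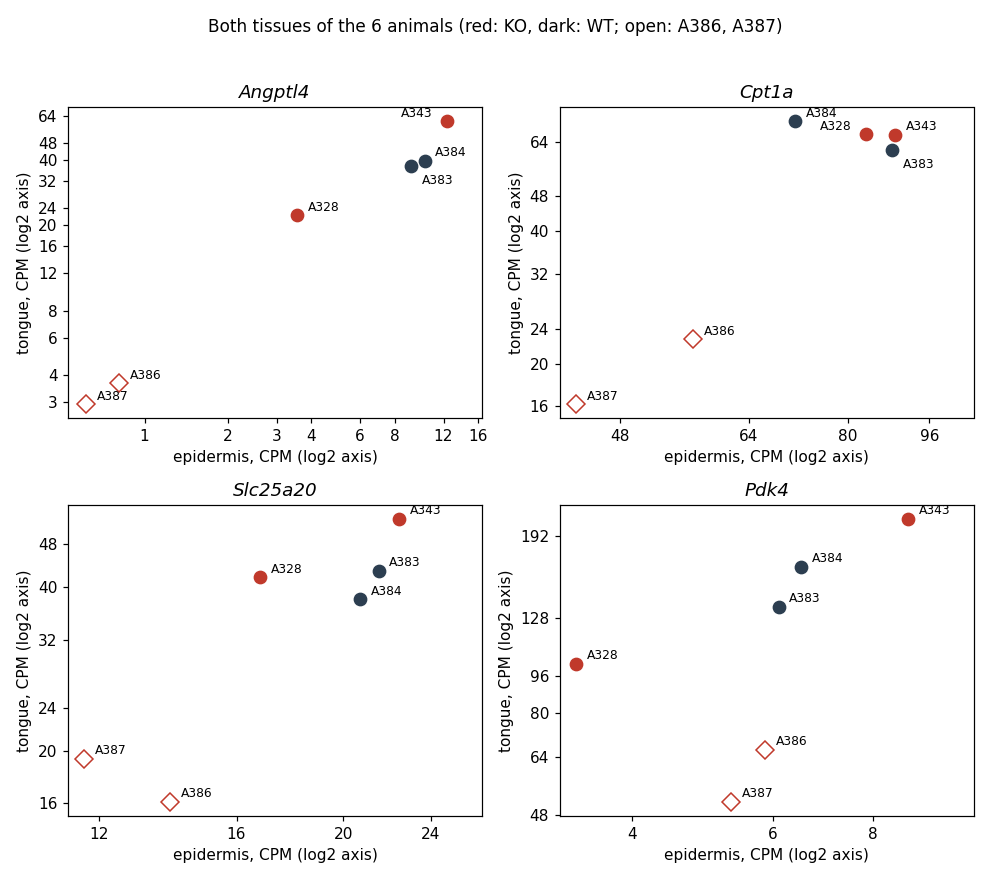
Tongue CPM (y axis) against epidermis CPM (x axis), both on log2 axes, in the 6 animals that gave both tissues (red KO, dark WT, open diamonds A386 and A387). A386 and A387 lie at the lower left for Angptl4, Cpt1a and Slc25a20, while for Pdk4 they are low in tongue only.

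The A-numbers fall in the ranges A325 to A329, A342 to A343 and A383 to A387, and the labels do not say what a range means. Only the last holds KO and WT pups of both tissues in pairs, A386 and A387 against A383 and A384. Within it (2 KO and 2 WT libraries a tissue, edgeR) Angptl4 was at log2 -3.76 (SE 0.30) in epidermis and -3.56 (SE 0.20) in tongue. In epidermis 3 of 7 genes were called lower, Angptl4, Cpt1a (-0.68) and Slc25a20 (-0.73), beside 1.46% of 15760 genes. In tongue 4 of 8 were called lower, Angptl4, Ucp3 (-2.80), Cpt1a (-1.77) and Acot2 (-1.60), beside 0.0563% of 15975 genes. These libraries are the ones whose levels chose the genes, so the calls restate the choice. Without A386 and A387, the tongue log2 fold changes were all above 0, from 0.08 for Angptl4 to 0.51 for Acot2, and none of the 9 passed (adjusted p = 0.9995 for each by edgeR). In epidermis they then ran from -0.02 for Acot2 to 0.21 for Cpt1a. Features other than genotype that A386 and A387 may share were not tested.

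**Figure D4:**
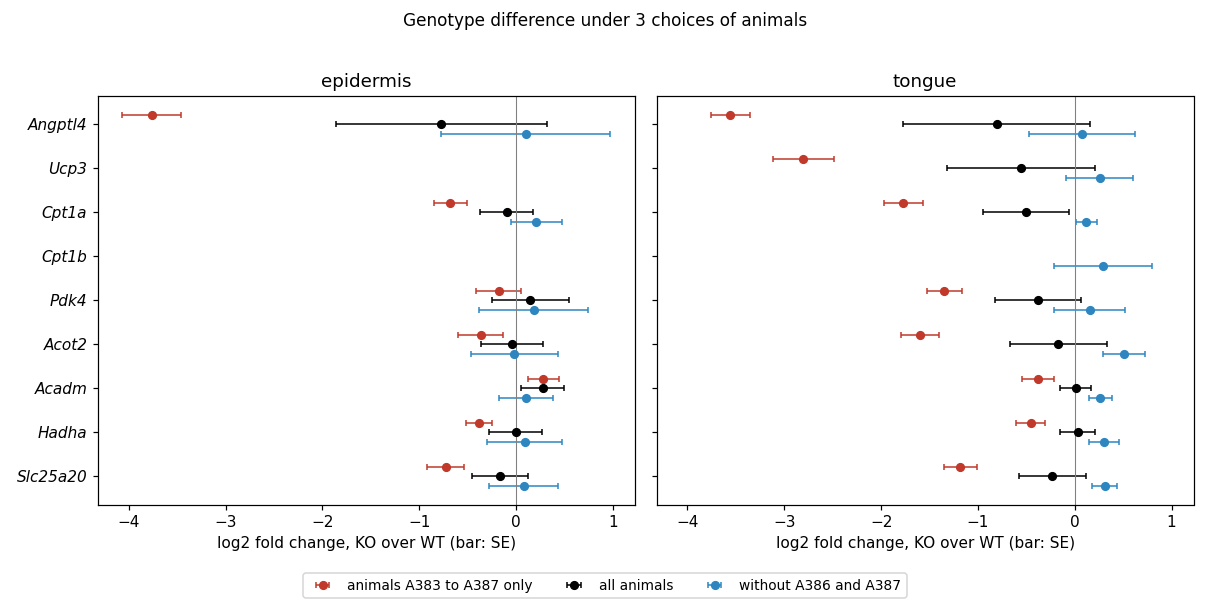
Log2 fold change of KO over WT (x axis, bars are SE from edgeR) in epidermis and tongue for animals A383 to A387 only (red), for all animals (black) and without A386 and A387 (blue). With A383 to A387 only, Angptl4 lies at -3.76 in epidermis and -3.56 in tongue, and without A386 and A387 it lies near 0 in both.

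A model of tissue and animal over the 12 libraries of the 6 animals called 123 of 18330 genes as different between animals (0.671%, edgeR). Angptl4 and Ucp3 were among them, a description like the rest of the pattern. Ucp3 lost its call under 6 of the alternatives. Of the pathway lists, fatty acid entry gave 1 of 14 genes and the FoxO, glucocorticoid and fasting-response list 8 of 24. The gene on the entry list was Fabp3, the muscle fatty acid binding protein (adjusted p = 0.0110 by edgeR). It had 85.01, 154, 13.02 and 24.3 CPM in KO tongue (A328, A343, A386, A387) and 64.1 to 85.8 CPM in WT tongue. In the epidermis libraries of the 6 animals Fabp3 had 1 to 8 reads and Ucp3 0 to 6. The calls of both genes thus rest almost wholly on tongue. The other 6 lists gave 0 called genes with edgeR. On the FoxO and glucocorticoid list Fkbp5, Klf9 and Sesn1 led. Fkbp5, a glucocorticoid-induced chaperone, was at 110 and 75.2 CPM in A386 and A387 tongue and 16.8 to 34.5 CPM in the other tongue libraries.

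The pathway lists were also set beside the 9 genes by library, where the 9 had been chosen for such a pattern. The median over 7 of the 9 genes was -1.20 and -1.24 relative to the WT mean in A386 and A387 tongue, on the scale of log2(CPM + 1). For 19 beta-oxidation genes it was -0.145 and -0.22, and for 13 genes of fatty acid entry -0.28 and -0.19. In the epidermis of A386 and A387 the median over the 7 genes was -0.04 and -0.05, and over the beta-oxidation genes 0.19 and 0.15. The WT mean of epidermis includes A325, at -0.63 for the 7 genes and -0.41 for the beta-oxidation genes. A383 and A384 were at 0.32 and 0.28 for the 7 genes, above A386 and A387. For the beta-oxidation genes they were at 0.28 and 0.22, also above A386 and A387. The median over 23 genes of the FoxO list lay 0.89 and 0.90 above the WT mean in A386 and A387 tongue and 0.86 and 0.79 above it in their epidermis. A386 and A387 were the lowest pair in tongue for 10 of 19 beta-oxidation genes and for 0 of 11 PPAR receptors, partners and coactivators. The share was 13.4% over all 13131 genes, and 0 of 11 is not far from it. In epidermis they were the lowest pair for 3 of the 19 beta-oxidation genes and the highest pair for 3. Over all genes these shares were 12.6% and 13.8%. In both tissues they were the lowest pair for 4 of 13 other PPAR targets, 3 of the 19 and 2 of 13 entry genes. The count was 1 of 10 for the peroxisomal list and 0 for the other lists, beside 2.67% of all genes. They were the highest pair in both for 15 of 23 FoxO list genes, 1 of 18 glycolysis genes and 0 in other lists, beside 2.79%. Nothing is read from these counts.

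**Figure D5:**
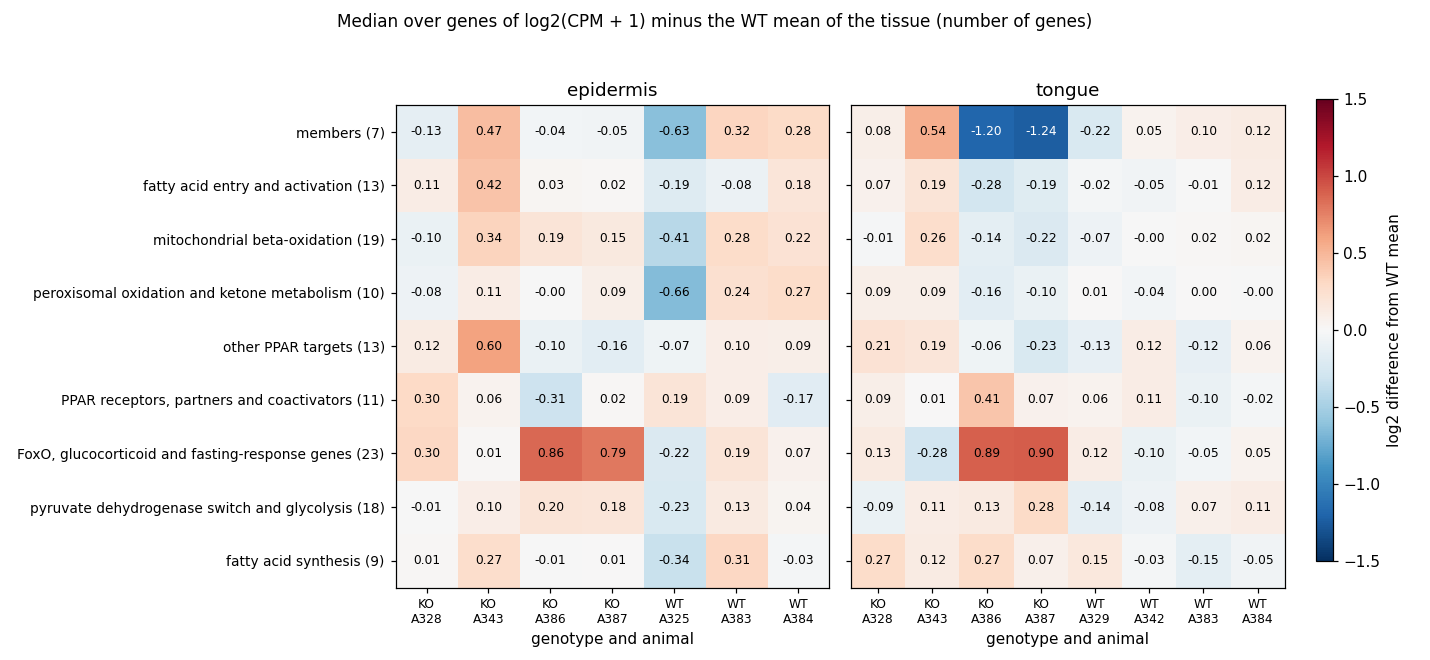
Median over the genes of each list (rows, number of genes with a mean of at least 1 CPM in both tissues in brackets) of log2(CPM + 1) minus the WT mean of the tissue, in each library (columns, KO left of WT, by animal). In tongue the set is lowest in A386 and A387, at -1.20 and -1.24, where the FoxO and glucocorticoid list is highest, and in epidermis the set is lowest in the WT animal A325.

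Marker levels were looked at beside this spread. The 12 skeletal muscle markers summed to 34560, 53040, 55280 and 53480 CPM in KO tongue (A328, A343, A386, A387) and to 31600 to 54440 CPM in WT tongue. This sum was thus not low in A386 and A387, but it is weighted to abundant genes. In A386 tongue Ttn and Myh8 had 258373 and 109429 reads. Mylpf had 37038 of 10685429 counted reads there and 49602 of 11541046 in A329 tongue. The 7 white adipocyte markers summed to 88.1 and 134 CPM in A386 and A387 tongue and to 188 to 298 CPM in the other tongue libraries. Most of this was Fabp4, which endothelium also makes, and the defining Adipoq and Plin1 were at or below 0.537 CPM in every tongue library. Mitochondrial ribosomal RNA took 36.6% and 37.1% of reads in A386 and A387 tongue, within the 35.5% to 40.8% of the others. Its parts differed in A386, where mt-Rnr1 had 78140 CPM, against 19710 to 23430 CPM in the other 7 tongue libraries, and mt-Rnr2 had the lowest level, 311000 CPM. In A387 mt-Rnr1 had 20890 CPM. The tongue library of A386 had the lowest mean correlation with its tissue, 0.971, where the others had 0.980 to 0.986, and the part of these values in the levels was not tested. In KO tongue the summed markers of other cell types ran from 188 to 227 CPM for brown adipocytes, 319 to 479 CPM for endothelium, 5185 to 6177 CPM for fibroblasts, 147 to 203 CPM for macrophages, 268 to 630 CPM for blood and 10090 to 13510 CPM for tongue epithelium. In WT tongue they ran from 175 to 207 CPM for brown adipocytes, 343.4 to 428 CPM for endothelium, 4888 to 5773 CPM for fibroblasts, 171 to 204 CPM for macrophages, 182 to 775 CPM for blood and 9043 to 14210 CPM for tongue epithelium. A386 and A387 were the lowest tongue libraries for the macrophage sum, at 147 and 164 CPM with the others at 171 to 204 CPM, and for the endothelial sum, at 340 and 319 CPM with the others at 343.4 to 479 CPM. A sum can hide single markers. Of the brown adipocyte list, Cox7a1 had 555 reads in A386 tongue and 1046 in A329 tongue, and Ppargc1a had 943 and 228. The part of these markers in the levels of the 9 genes was not tested.

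The genes most like Pdk4 and Angptl4 were ranked over the 15 libraries by the Pearson r of log2(CPM + 1), centred by tissue, among 11347 genes with a mean of at least 5 CPM. Closest to Pdk4 were Meox2 (r = 0.906), Hsdl2 (0.904), Slitrk6 (0.901), Nrp1 (0.898) and Etfdh (0.888). Meox2 had 0 to 4 reads per epidermis library, so that its r rests almost wholly on tongue. Closest to Angptl4 were Rgs19 (0.918), Ddx31 (0.913), Tfdp1 (0.907), Eci2 (0.895) and Nubp1 (0.894). Both lists are descriptions over 15 libraries of 9 animals that share depth and scaling. Hsdl2 had 49.3, 80.2, 25.1 and 23.4 CPM in KO tongue and 51.8 to 55.2 CPM in WT tongue. Eci2, a peroxisomal and mitochondrial enoyl-CoA isomerase, had 78.9, 97.3, 43.4 and 49.3 CPM in KO tongue and 76.3 to 84.0 CPM in WT tongue.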

How the data were processed

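RNA was taken from epidermis, separated from dermis by heat and EDTA, and from tongue. Libraries were made with SMARTer V4 and TruSeq v2 kits and read as 37-base pairs, per the labels' protocols. The submitters' processing notes list STAR 2.5.2a, GRCm38.p3 and, without versions, DESeq2, edgeR and limma. How reads were counted, and with which annotation, is not given in the sources used here, and the kits do not mark strand. The authors deposited counts of whole reads per Ensembl gene, without normalization, and these were tested. They also deposited a normalized signal table of the same genes, each count divided by a constant of its library, which was used for symbols and as an alternative scale. It exceeds the CPM used here, whose ratio to it was 0.891 to 0.972.

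CPM were computed on TMM-scaled totals of all 15 libraries. The 2 transgene entries (at most 0.00439% of reads) were left out. Each comparison was filtered (filterByExpr, minimum count 10), scaled with TMM and fitted in R 4.3.3 with edgeR 4.0.16 by robust quasi-likelihood, with Benjamini-Hochberg adjustment over all genes tested and a threshold of 0.05. Folds are KO over WT or epidermis over tongue. Alternatives were RLE scaling, no filter, DESeq2 1.42.0, limma-voom 3.58.1, library sizes without mitochondrial ribosomal RNA, blocks by replicate number, animal or A-number range, A383 to A387 only, each library left out and, chosen after seeing the data, no A386 and A387. The fits were tested on simulated data. Replicate numbers came from the titles. In epidermis, deviations of same-numbered KO and WT libraries correlated at r = 0.591, 0.106 and 0.493. Differently numbered ones could do so too, as A386 with A383 (r = 0.397). Same-numbered KO and WT libraries are different animals, so the main fits did not pair them. The block by replicate number was an alternative only. KO tissues pair by animal. The A-number was read as the animal, and p-values reflect only how much these libraries vary.

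The 9 genes, the 8 pathway lists (134 of 135 genes in the tables) and the 10 marker lists were chosen with earlier results of these data known. The text names the 9 genes, up to 3 genes per list past the threshold with the smallest p and a mean of at least 1 CPM, the 5 genes most like Pdk4 or Angptl4, and marker genes beside their list. Coordinates are GENCODE M21 (23337 of the IDs matched) and promoters RefSeq. A targeted gene, Fgf21 and Lep were not analysed here.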

Additional observations from a re-analysis of the deposited data

Results flagged for a closer look

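With 4 libraries a group, 27 combinations of gene and group were looked at for a library far from the rest, and 3 were found; chance alone gives about 1 in 20. Hadha in KO epidermis reached 246 CPM in A343, where the next highest library had 169 CPM. The A343 library also had the highest skeletal muscle marker sum of the epidermis, 765 CPM. Ucp3 in WT tongue was lowest in A329, at 11.9 CPM, where the next had 21.1 CPM. Cpt1b in KO epidermis was at 0.105 CPM in A328, which is 2 reads, and at 0 in the other 3 libraries.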

How the results depend on the processing

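Most values kept their direction and their side of the threshold: of the values of single genes, 567 did so under an alternative, 19 lost and 14 gained a call, 46 turned sign and 2 moved. Every turn below concerns a log2 fold change of KO over WT that was never called in the fit of all animals; the cause was not tested.

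In epidermis, DESeq2 and the A-number range as a block each called 1 gene, and A383 to A387 alone 604, where edgeR called 0. Hadha turned to 0.0021 without a filter and 0.0681 with limma-voom. With the replicate block, Cpt1a was 0.0643, Acot2 0.0681 and Hadha 0.0792, and the count of calls stayed 0. With the range block Pdk4 was -0.0537 and Acot2 0.0222, and Pdk4 was -0.1791 in A383 to A387 alone. Without A386 and A387 (chosen after seeing the data) Angptl4 was 0.098, Cpt1a 0.2095, Hadha 0.0864 and Slc25a20 0.0796. Leaving out 1 library at a time gave -2.0989 to -0.4043 for Angptl4, -0.4154 to -0.0138 for Slc25a20, 0.1423 to 0.3917 for Acadm, -0.2599 to 0.0739 for Cpt1a, -0.1415 to 0.3599 for Pdk4, -0.3305 to 0.2114 for Acot2 and -0.2658 to 0.1662 for Hadha.

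In tongue, DESeq2 called 4 genes and A383 to A387 alone 15, where edgeR called 2. Acadm was -0.0235 with limma-voom, -0.0226 with the replicate block, -0.0192 with the range block and -0.3828 in A383 to A387, and Hadha -0.0033, -0.0039, -0.0027 and -0.4554 in the same order. Same-numbered tongue libraries did not all deviate together (r = 0.573, 0.118, -0.135 and 0.227), and they are different animals that share a number. Without A386 and A387 Angptl4 was 0.0753, Ucp3 0.257, Cpt1a 0.1191, Pdk4 0.155, Acot2 0.5094 and Slc25a20 0.308. Leaving out 1 library gave -2.0234 to -0.4331 for Angptl4, -1.4699 to -0.1832 for Ucp3, -0.7998 to -0.231 for Cpt1a, -0.9265 to -0.1452 for Pdk4, -0.5724 to -0.0117 for Slc25a20, -0.7408 to 0.1004 for Acot2, -0.1594 to 0.1464 for Acadm and -0.1819 to 0.1548 for Hadha.

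The difference of genotype effects between tissues called 1 gene with DESeq2, 1 with the range block, 19 in A383 to A387 and 0 to 1 with a library left out, against 0. The animal term called 1.07% of genes without a filter, 1.77% with DESeq2, 0.333% with limma-voom and 0.207% within genotype, against 0.671%. It ran from 0.233% to 0.701% with an animal left out, and fell to 0.378% without A383, 0.335% without A384, 0.233% without A328 and 0.366% without A387. Low counts limit Ucp3 and Cpt1b in epidermis, at 0 to 6 reads a library, and for Cpt1b it is not known how reads shared with other genes were counted.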

Other observations

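Some genes outside the set, chosen after their values were seen, also stood apart in the tongues of A386 and A387. Cd36 had 420, 523, 208 and 209 CPM in KO tongue (A328, A343, A386, A387) and 325.4 to 427 CPM in WT tongue. Mlycd, malonyl-CoA decarboxylase, which lowers the inhibitor of Cpt1, had 30.7, 43.8, 12.03 and 10.7 CPM in KO tongue and 25.0 to 33.0 CPM in WT tongue. Ppara, which encodes PPAR-alpha, went the other way, with 7.44, 5.74, 25.1 and 17.3 CPM in KO tongue and 4.78 to 8.72 CPM in WT tongue. So did Klf15, a glucocorticoid-induced factor, with 5.22, 2.46, 27.9 and 22.1 CPM in KO tongue and 2.98 to 4.88 CPM in WT tongue. In epidermis Ppara lay between 1.10 and 1.45 CPM in KO and between 0.974 and 2.02 CPM in WT.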
